A study of Mus musculus with 2 samples.

Results

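The genes described here are 60 genes of mitosis and cytokinesis, chosen by symbol for their known role: mitotic kinases and cyclins, spindle checkpoint and kinetochore genes, kinesins, condensin subunits and cytokinesis genes. All 60 symbols were found, each on 1 row, among the 23282 gene rows of the count files. Naïve CD4 T cells from the spleen of *Fak* fl/fl mice were transduced with a control retrovirus (the empty vector MIEG3) or with RV-Cre, a retrovirus that carries Cre recombinase and deletes the floxed *Fak* gene, listed as *Ptk2*. For 3 days both cultures received antibodies to CD3ε at 10 μg/ml, bound to the plate, and to CD28 at 5 μg/ml, in Th17-polarizing medium that held IL-6, TGFβ1, TNF-alpha, IL-1beta and antibodies to IFNγ and IL-4. The study's methods place activation with antibodies to CD3 and CD28 before the infection. The 3 days of polarizing culture are therefore not the whole time since activation. Transduced, GFP-positive cells were sorted according to the study's methods. There was 1 RNA-seq library per condition, made from 500 ng of total RNA. WT is the genotype given for the control, but its title names *Fak* fl/fl cells and was followed. According to the methods the T cells came from female mice of 6 to 8 weeks, and whether animals were pooled is not given in the sources used here. Both conditions share the floxed allele, the retroviral infection and the sort. Cre was present in the RV-Cre culture alone, so loss of *Fak* and expression of Cre cannot be told apart.

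A dividing cell enters mitosis when the kinase CDK1, bound to A- and B-type cyclins, is switched on. Kinetochores then attach the condensed chromosomes to a spindle of microtubules that kinesin motors build and move. The spindle checkpoint holds the anaphase-promoting complex back until every chromosome is attached, after which the sisters separate and the cell is cleaved. Most of these genes are transcribed late in the cell cycle and are repressed in resting cells. Naïve T cells rest until they are stimulated through the T cell receptor and CD28, and then divide rapidly for several days, so that these transcripts are used as a sign of dividing cells in a T cell culture.

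Counted reads numbered 13799264 for the control and 12305010 for RV-Cre. QuantSeq libraries are read from the 3′ end of the transcript, so a count does not grow with transcript length. Counts were scaled by TMM and expressed as log2(normalized count + 1), and a gene was taken up when this value reached 4 in either library. Ratios are RV-Cre over control, and log2 ratios are differences between the 2 log2 values. A gene is called lower or higher at a difference of at least 2-fold. Each condition had 1 library, so differences have no replicate check and were not tested, and the 95% intervals given are exact Clopper-Pearson intervals that cover counting error only, for these libraries and not for the conditions. In the accounts of single genes the control reads come first and the RV-Cre reads second. *Ptk2* had 110 control reads and 31 RV-Cre reads, a ratio of 0.318 (95% interval 0.206 to 0.477). These reads come from the 3′ end of the transcript, and the position of the floxed exon is not given in the sources used here, so they do not check the deletion itself. T cell markers were abundant in both libraries, with 25431 and 30457 reads on the 9 of 10 listed genes that were found, and 2 of the 9 were at least 2-fold higher in the RV-Cre library. *Cd3d*, a chain of the T cell receptor complex, had 3662 and 7475 reads, the second being the highest of these markers in the RV-Cre library. The 8 B cell markers summed to 69 and 133 reads with *Pax5* at 0 in both, the 10 myeloid markers to 361 and 718 reads with *Adgre1* at 0 and 8, and the 7 erythroid markers to 45 and 236 reads. The 8 CD8 T and NK cell markers summed to 1243 and 1566 reads, with *Ncr1* at 0 and 8. Of the 6 past the log2 minimum of 4, 2 were lower and 2 higher by 2-fold or more. The B cell, myeloid and erythroid lists had 5, 7 and 3 markers past that minimum. Of these, 0, 1 and 0 were lower, and 3 in each list were higher, by 2-fold or more. Over all rows past the minimum, 12.3% were lower and 14.2% higher by that much. The highest count in either library was that of *Marco* (5 and 289 reads) for the myeloid markers, where the control count was not the highest, of *Hba-a1* (30 and 165) for the erythroid markers and of *Nkg7* (492 and 615) for the CD8 T and NK cell markers. Of the control reads 8.5%, and of the RV-Cre reads 14.6%, fell on the ribosomal RNA gene *Rn45s*. The part of these differences in the results given here was not tested.

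The 60 mitotic genes were lower in the RV-Cre library almost throughout. All 60 passed the expression minimum, 53 of them were lower by 2-fold or more and 0 were higher by that much. Of the 12112 gene rows past the minimum, 12.3% were lower and 14.2% were higher by 2-fold or more. The median log2 ratio of the 60 genes was -1.82, against -0.01 over all 12112. The whole 95% counting interval lay beyond 2-fold for 47 of the 60 genes, while this was so for 6.98% of all rows in the lower direction. Among the better covered rows, whose log2 level reached 6 in 1 library or both, 11.0% were at least 2-fold lower, and of the 59 mitotic genes there 52 were. Among the 60 genes, only *Pttg1* and *Cdc25b* had a ratio above 1. In bulk RNA, fewer cells in mitosis and less of each transcript per mitotic cell cannot be told apart.

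**Figure D1:**
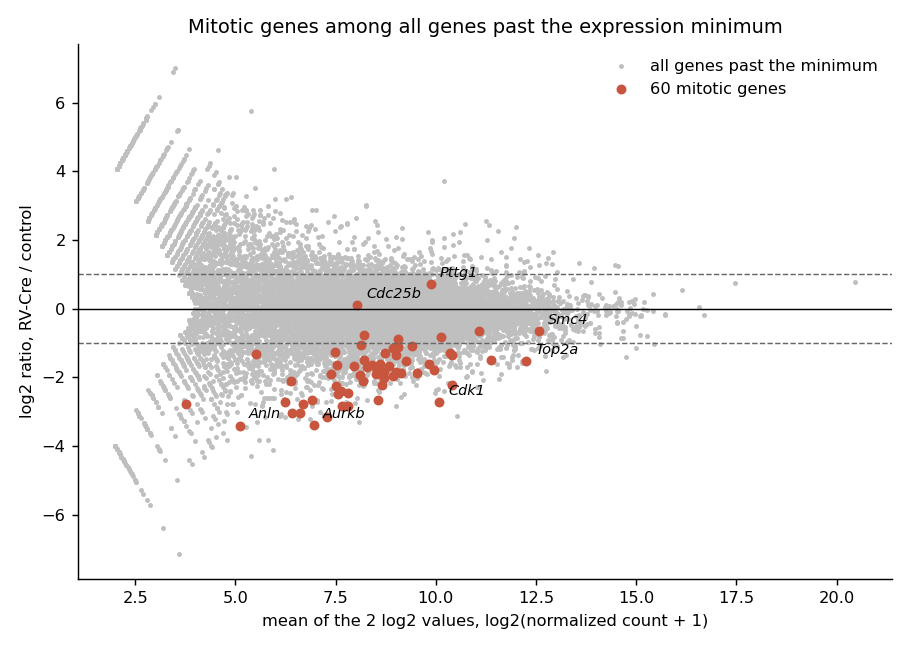
Each point is a gene past the expression minimum, placed by the mean of its 2 log2 values (x axis, log2 of normalized count + 1) and by its log2 ratio of RV-Cre over control (y axis), with the 60 mitotic genes in red and dashed lines at 2-fold. Of the red points 53 lie below the lower dashed line, at a median over all 60 of -1.82, with *Pttg1* and *Cdc25b* above 0.

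Together the 60 genes held 69739 reads in the control library, 0.505% of all its reads (Wilson 95% interval 0.502 to 0.509), and 23483 reads in the RV-Cre library, 0.191% (0.188 to 0.193). The median gene had 702 control reads and 186.5 RV-Cre reads, and 2 and 19 genes, respectively, had fewer than 100 reads. The reads were spread very unevenly among the genes. *Top2a*, which encodes the topoisomerase that untangles sister DNA, and the condensin ATPases *Smc4* and *Smc2* carried 30.9% of the control reads of the 60 genes and 37.3% of the RV-Cre reads.

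The size of the difference varied among the genes by more than counting error. There were 22 genes at least 4-fold lower, of which 5 were at least 8-fold lower, and 31 genes lower by 2-fold to 4-fold. The 95% interval of 20 genes held the median ratio of 0.282, the interval of 19 genes lay wholly below it and that of 21 genes wholly above it. Ordered by ratio, the lowest were *Anln*, *Aurkb*, *Kif2c*, *Ccnb2* and *Melk*, whose intervals overlap so that their order is not set by these reads. The 30 genes with the lower control level had a median log2 ratio of -2.18 and the 30 with the higher control level one of -1.57. Across the 60 genes, the log2 ratio and the mean log2 level had a Pearson correlation of 0.54 and a Spearman correlation of 0.57, values that describe these genes, all counted in the same pair of libraries. Both quantities are computed from the same 2 log2 values, so these correlations do not by themselves show a link between level and difference.

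**Figure D2:**
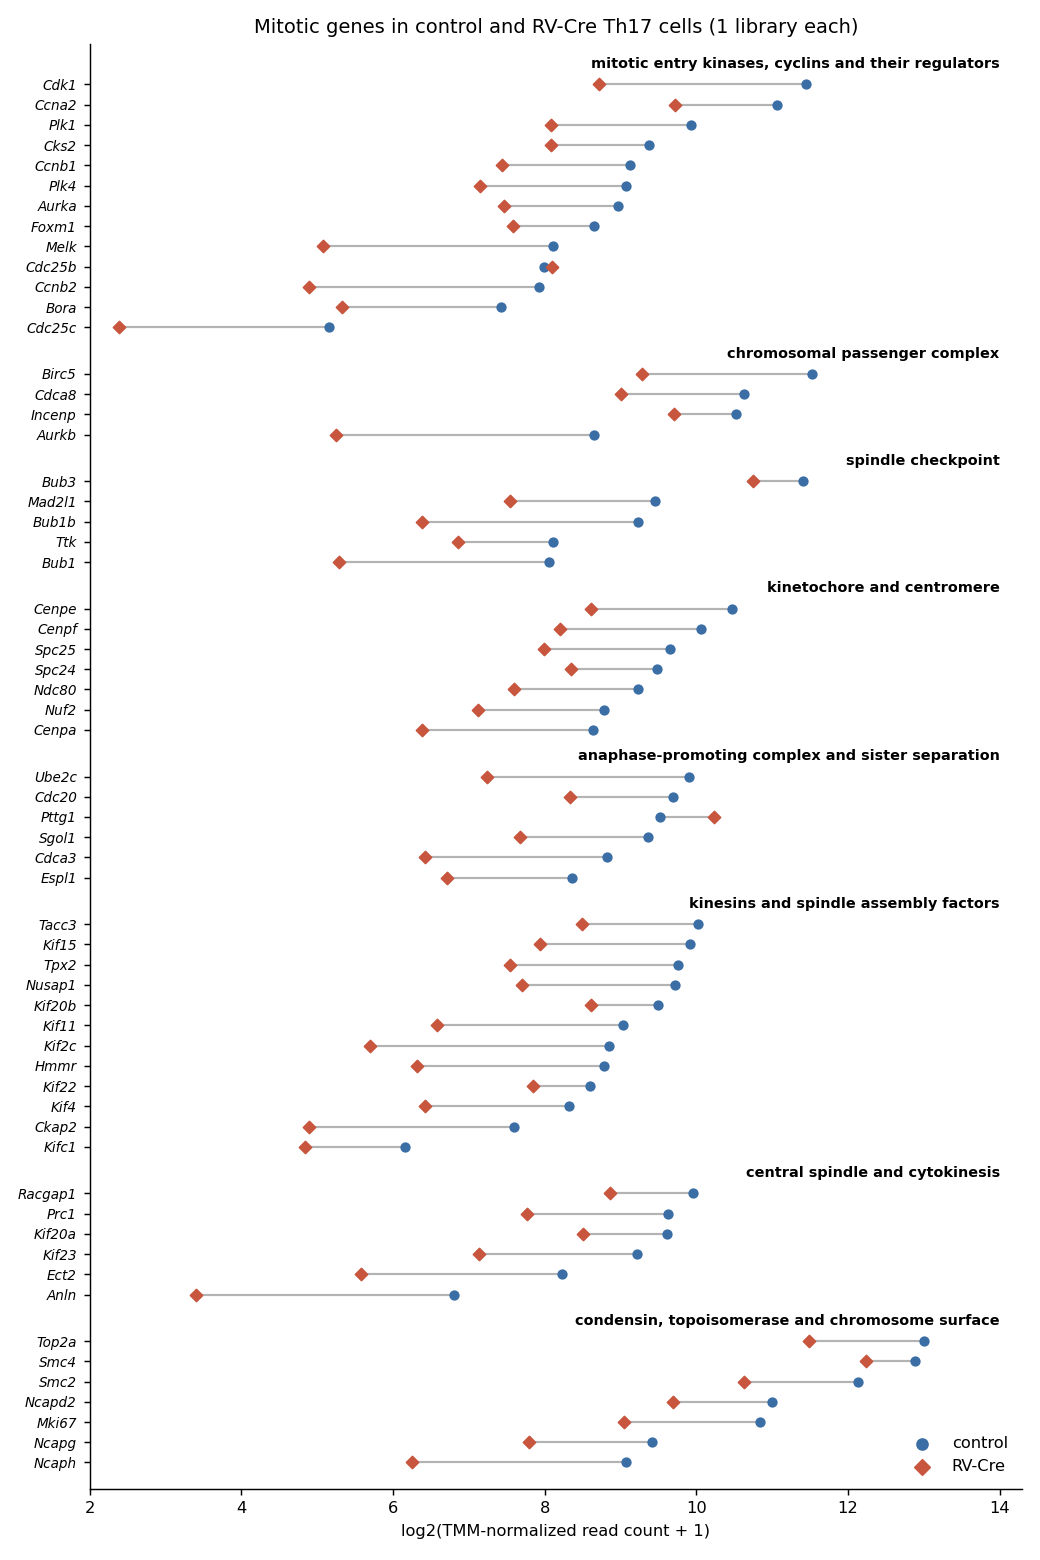
Level of each of the 60 genes as log2(TMM-normalized read count + 1) on the x axis, with control as blue circles and RV-Cre as red diamonds, 1 library each, grouped by role and ordered by control level. The red diamond lies to the left of the blue circle for 58 genes, and the longest lines are those of *Anln* and *Aurkb*.

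Promoters of mitotic genes are known for CCAAT boxes, bound by NF-Y, and for the cell cycle homology region, the element through which the MuvB complex acts with repressors in resting cells and with B-Myb or FOXM1 in dividing cells. Since the genes moved together, the 250 bases before each RefSeq start site (GRCm38.p6) were searched on both strands for CCAAT and for the core of the homology region, which was written TTTGAA in its first form and TTCGAA in the other. A CCAAT box and a core can share at most 1 base. A promoter was matched for 50 of the 60 genes. For some of these, among them *Kif2c*, *Cdca3*, *Cdc25b* and *Pttg1*, the start site used lay inside the gene. The bases before the 5′ ends of those named were not searched, so a motif missing there may reflect the start site used. CCAAT stood before 35 of the 50 genes, 70.0%, and before 37.5% of the 27025 genes in the promoter table. The homology region core stood before 19 of the 50, 38.0%, and before 19.6% of all. Both motifs were present for 17 of the 50, 34.0%, and for 7.93% of all, and at least 2 CCAAT boxes for 23, 46.0%, and for 11.5% of all. Within the 50 genes, the motifs did not sort the ratios. The median log2 ratio was -1.80 with CCAAT and -1.94 without, and -1.85 both with and without the homology region core. The last 100 bases before the start are shown for 5 lower genes with 1 or more of these motifs there and for the 2 genes with a ratio above 1. Motif matches on either strand are in capitals, and one on the opposite strand appears as its reverse complement. A match is a run of letters and not a shown binding site.
Cdk1 (chr10:69352913-69353012, minus strand): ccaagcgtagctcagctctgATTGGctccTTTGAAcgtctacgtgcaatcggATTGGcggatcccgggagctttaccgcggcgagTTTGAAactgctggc
Ccnb2 (chr9:70421555-70421654, minus strand): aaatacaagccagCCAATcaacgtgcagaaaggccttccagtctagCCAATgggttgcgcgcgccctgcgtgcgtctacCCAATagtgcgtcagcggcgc
Ube2c (chr2:164769829-164769928, plus strand): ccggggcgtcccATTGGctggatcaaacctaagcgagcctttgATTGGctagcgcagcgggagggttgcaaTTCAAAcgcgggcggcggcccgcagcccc
Top2a (chr11:99024190-99024289, minus strand): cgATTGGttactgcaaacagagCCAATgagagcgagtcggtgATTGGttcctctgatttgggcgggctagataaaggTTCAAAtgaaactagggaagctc
Cdc20 (chr4:118437344-118437443, minus strand): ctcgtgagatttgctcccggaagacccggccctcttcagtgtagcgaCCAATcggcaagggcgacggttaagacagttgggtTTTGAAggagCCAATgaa
Cdc25b (chr2:131186848-131186947, plus strand): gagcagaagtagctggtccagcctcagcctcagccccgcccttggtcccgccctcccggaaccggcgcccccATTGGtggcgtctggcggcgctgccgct
Pttg1 (chr11:43425982-43426081, minus strand): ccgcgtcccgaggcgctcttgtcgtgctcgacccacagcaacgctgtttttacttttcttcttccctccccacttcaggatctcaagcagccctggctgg
*Cdk1* has 2 homology region cores and 2 CCAAT boxes in this window, *Ccnb2* 3 CCAAT boxes with its core farther upstream, and *Ube2c* and *Cdc20* 1 core and 2 CCAAT boxes each. *Top2a* has 3 CCAAT boxes and 1 core here. *Cdc25b* has 1 CCAAT box, and *Pttg1* has neither motif in the 250 bases searched. For both, the start site used lies inside the gene. The 5′ end of *Cdc25b* is at 131186436 and that of *Pttg1* at 43427463. The bases before those ends were not searched, so these windows do not show which motifs stand there.

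**Figure D3:**
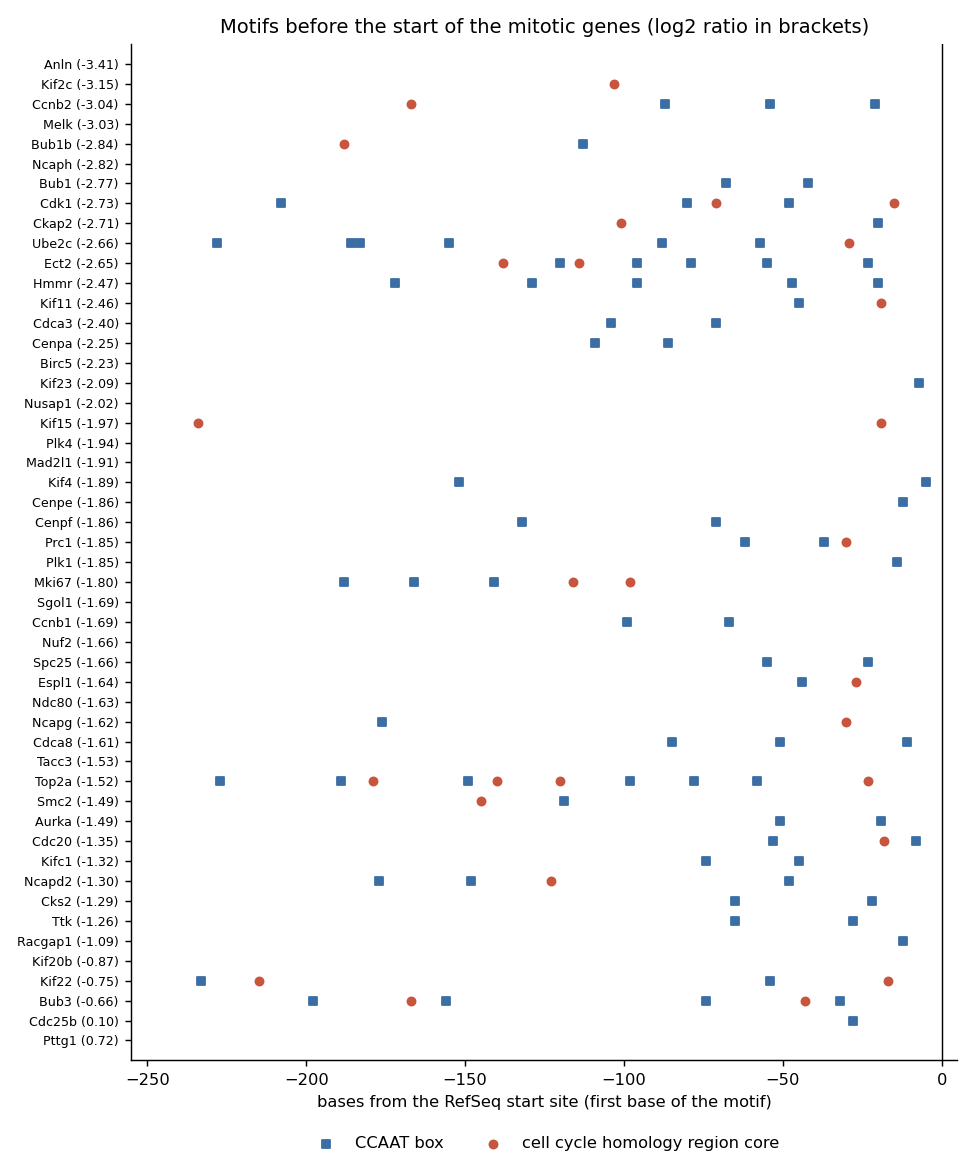
Position of each CCAAT box (blue squares) and homology region core (red circles) before the RefSeq start site of the 50 mitotic genes with a promoter in the table, in bases from the start (x axis), with genes ordered from the lowest log2 ratio (top) to the highest (bottom). Genes with both motifs are found from *Ccnb2* at -3.04 down to *Bub3* at -0.66.

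Of the 13 kinases, cyclins and regulators of mitotic entry, 12 were at least 2-fold lower, with the median log2 ratio at -1.85. *Cdk1*, the kinase that drives entry, had 2971 control reads and 397 RV-Cre reads, a ratio of 0.151 (95% interval 0.135 to 0.167). Its promoter, shown above, holds both motifs. *Ccna2*, which encodes cyclin A2, active from S phase to early mitosis, had 2269 and 795 reads (ratio 0.395). The B-type cyclins were unequal, since *Ccnb1* had 591 and 162 reads (ratio 0.309, 0.258 to 0.369) and *Ccnb2* had 258 and 27 (ratio 0.118, 0.0763 to 0.176), with intervals that do not overlap. The kinase thus differed more than cyclin A2 and cyclin B1, and less than the point value of cyclin B2. *Cks2*, a small subunit of cyclin-dependent kinases, had 706 and 255 reads, a log2 ratio of -1.29. *Plk1*, the Polo kinase of spindle and centrosome maturation, had 1034 and 254 reads, a log2 ratio of -1.85. *Plk4*, which starts centriole duplication, had 573 and 132 reads, a log2 ratio of -1.94. Both Polo kinases lay near the median of the 60 genes. *Aurka*, the Aurora kinase of the spindle poles, had 529 and 166 reads, a log2 ratio of -1.49. *Bora*, whose product lets Aurora A activate PLK1, had 182 and 37 reads, a log2 ratio of -2.10. *Melk*, which encodes a kinase expressed in dividing cells, had 293 and 31 reads, a log2 ratio of -3.03, the second lowest of this group after *Ccnb2*. *Foxm1*, a transcription factor of late cell cycle genes, had 427 and 180 reads and a log2 ratio of -1.07, just past 2-fold, with an interval of its ratio from 0.397 to 0.568 that includes 2-fold.

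The 2 CDC25 phosphatases among the 60 genes, which activate CDK1, went apart. *Cdc25c* had 37 and 4 reads, the fewest of the 60 genes in both libraries, with a ratio of 0.122 and a wide interval from 0.0316 to 0.340. Its log2 ratio was -2.77, and -1.65 with a pseudocount of 10. *Cdc25b* had 269 and 256 reads, a ratio of 1.07 (0.901 to 1.28), which differs from 1 by less than counting error. The intervals of the 2 phosphatase genes do not overlap. Exons of both overlap a gene on the opposite strand (*Gm3550* and *Spef1*), and since no source used here states whether strand was counted, part of their reads is uncertain. *Cdc25a*, named after its value was seen, is in the list of further entry switch genes and not among the 60. It had 1948 and 919 reads, a ratio of 0.532 (0.492 to 0.576).

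In the chromosomal passenger complex, which corrects wrong attachments and later steers cleavage, the 4 subunits differed by unequal amounts. The kinase *Aurkb* had 425 control reads and 35 RV-Cre reads, a ratio of 0.0929 (0.0639 to 0.131). *Birc5*, which encodes survivin, had 3121 and 587 reads (ratio 0.212), and *Cdca8*, which encodes borealin, had 1674 and 485 (ratio 0.327). *Incenp*, the scaffold of the complex, had 1565 and 787 reads, a ratio of 0.567 (0.520 to 0.619) that is less than 2-fold. The 4 intervals are all apart from each other, and the ratio of *Incenp* was 6.11 times that of *Aurkb*. *Aurkb* made up 6.26% of the reads of the 4 genes in the control and 1.85% after RV-Cre.

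Of the 5 spindle checkpoint genes, 4 were at least 2-fold lower, with a median of -1.91. The kinase *Bub1* had 283 and 36 reads and its relative *Bub1b*, which encodes BUBR1, had 638 and 78, log2 ratios of -2.77 and -2.84. *Mad2l1*, whose product MAD2 holds back CDC20, had 744 and 175 reads, a log2 ratio of -1.91, and *Ttk*, the kinase MPS1 that starts the signal, had 293 and 108, a log2 ratio of -1.26. *Bub3* had 2884 and 1621 reads and a ratio of 0.634 (0.596 to 0.674), 4.60 times that of *Bub1b*, its partner in the checkpoint complex. *Bub3* had the most reads of the 5 in both libraries and the ratio closest to 1.

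All 7 kinetochore and centromere genes were lower by 2-fold or more, in the narrowest range of the 8 role groups, from -2.25 to -1.14 with a median of -1.66. The 4 subunits of the NDC80 complex, which grips the microtubule, had ratios within 1.44 times of each other. *Ndc80* had 638 and 182 reads (ratio 0.322), *Nuf2* 467 and 130 (0.314) and *Spc25* 852 and 238 (0.315). *Spc24* stood slightly apart with 762 and 306 reads and a ratio of 0.453 (0.396 to 0.518), above the intervals of the other 3. *Cenpa*, the histone variant that marks the centromere, had 424 and 78 reads, a log2 ratio of -2.25, the lowest of the group. *Cenpe*, a kinesin of the kinetochore, had 1502 and 366 reads and *Cenpf*, a large protein of the outer kinetochore, 1137 and 277, with log2 ratios of -1.86 for both genes.

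Of the 6 genes of the anaphase-promoting complex and sister separation, 5 were at least 2-fold lower. *Ube2c*, the ubiquitin-conjugating enzyme of the complex, had 1014 and 141 reads, a ratio of 0.157 (0.131 to 0.187). *Cdc20*, its activator in mitosis, had 876 and 304 reads, a ratio of 0.392 (0.343 to 0.447). Enzyme and activator therefore differed beyond counting error. Exons of *Ube2c* share 592 bases with *Tnnc2* and those of *Cdc20* 53 bases with *Elovl1*, both on the opposite strand. Part of their reads is therefore uncertain. *Cdca3*, a mitotic entry factor that is itself destroyed through the complex, had 481 and 80 reads, a log2 ratio of -2.40. *Sgol1*, which encodes shugoshin, the protector of centromeric cohesin, had 698 and 191 reads, a log2 ratio of -1.69. *Espl1*, which encodes separase, the protease that cuts cohesin, had 348 and 98 reads, a log2 ratio of -1.64. *Pttg1* encodes securin, the inhibitor of separase, and went the other way. It had 779 control reads and 1135 RV-Cre reads, a ratio of 1.64 (1.5 to 1.8) and a log2 ratio of 0.72, beyond counting error and below 2-fold. No other gene with a similar transcript 3′ end and no exon overlap was found for *Pttg1* or *Espl1* in GENCODE M21.

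Of the 12 kinesins and spindle assembly factors, 10 were at least 2-fold lower, with the median at -2.0, the lowest of the 8 role groups. *Kif2c*, a kinesin that takes microtubules apart at the centromere, had 490 and 48 reads, a ratio of 0.111 (0.0804 to 0.149). *Ckap2*, a microtubule-associated protein of the spindle, had 205 and 27 reads, a log2 ratio of -2.71. Next in order came *Hmmr*, a spindle pole protein, with 469 and 74 reads (-2.47 on the log2 scale) and *Kif11*, the motor that pushes the spindle poles apart, with 556 and 89 (-2.46). These 4 genes were all more than 4-fold lower. *Tpx2*, the activator of Aurora A on the spindle, had 919 and 175 reads (log2 ratio -2.21), and *Nusap1*, a microtubule bundling protein, 898 and 195 (-2.02). *Kif15*, a motor that backs up KIF11, had 1023 and 231 reads (-1.97), *Kif4*, a chromosome-bound kinesin, 338 and 80 (-1.89), and *Tacc3*, a spindle microtubule crosslinker, 1102 and 337 (-1.53). *Kifc1*, a minus-end motor, had 75 and 26 reads and a wide interval of its ratio from 0.240 to 0.618, and its transcript end is 92.5% identical to that of *Kifc5b*, so that reads may be shared. *Kif20b*, a kinesin of late cytokinesis, with 764 and 369 reads, and *Kif22*, a motor that moves chromosome arms, with 410 and 215, had log2 ratios of -0.87 and -0.75, short of 2-fold.

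All 6 central spindle and cytokinesis genes were at least 2-fold lower, with a median of -1.97. *Anln*, which encodes anillin, the scaffold of the contractile ring, had 118 control reads and 9 RV-Cre reads, a ratio of 0.0861 (0.0384 to 0.169), the lowest of the 60 genes. Its log2 ratio was -3.41 with the pseudocount of 1 and -2.63 with one of 10, where *Aurkb* was lower at -3.12. *Ect2*, the exchange factor that activates RhoA at the cleavage site, had 318 and 44 reads, a ratio of 0.156 (0.111 to 0.214). Both act at the cell cortex, and both had ratios below those of the 4 central spindle genes. The interval of *Anln* is apart from those of the 4, while that of *Ect2* overlaps with that of *Kif23*. *Kif23* and *Racgap1* encode the 2 subunits of centralspindlin, which recruits ECT2. *Kif23* had 634 and 131 reads (ratio 0.233, 0.192 to 0.282) and *Racgap1* had 1055 and 439 (ratio 0.470, 0.419 to 0.525), a difference between partners of 2.01 times. *Prc1*, which bundles the microtubules of the central spindle, had 838 and 205 reads, a log2 ratio of -1.85. *Kif20a*, the motor that brings the passenger complex there, had 833 and 342 reads, a log2 ratio of -1.11. Its exons share 1271 bases with *Cdc23* on the opposite strand, which had 831 and 344 reads. The 2 rows may count the same reads, so the value of *Kif20a* is uncertain.

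Of the 7 genes of chromosome structure, 6 were at least 2-fold lower, with the median at -1.52, the closest to 0 of the 8 role groups. The core ATPases of condensin, shared by both condensin complexes, had more reads than the condensin I subunits. *Smc4* had 8031 and 4557 reads, a ratio of 0.640 (0.617 to 0.664), and *Smc2* had 4760 and 1496, a ratio of 0.355 (0.334 to 0.376). The subunits particular to condensin I spanned a wider range, since *Ncapd2* had 2163 and 779 reads (ratio 0.406), *Ncapg* 723 and 208 (0.325) and *Ncaph*, the kleisin that closes the ring, 573 and 71 (0.140, 0.108 to 0.179). The ratio of *Smc4* was 4.58 times that of *Ncaph*. *Top2a* had 8753 and 2707 reads, the first being the highest control count of the 60 genes, a ratio of 0.349 (0.334 to 0.364). *Mki67*, which encodes the proliferation marker Ki-67 on the chromosome surface, had 1947 and 495 reads, a ratio of 0.287 (0.259 to 0.317), next to the median of the 60 genes.

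**Figure D4:**
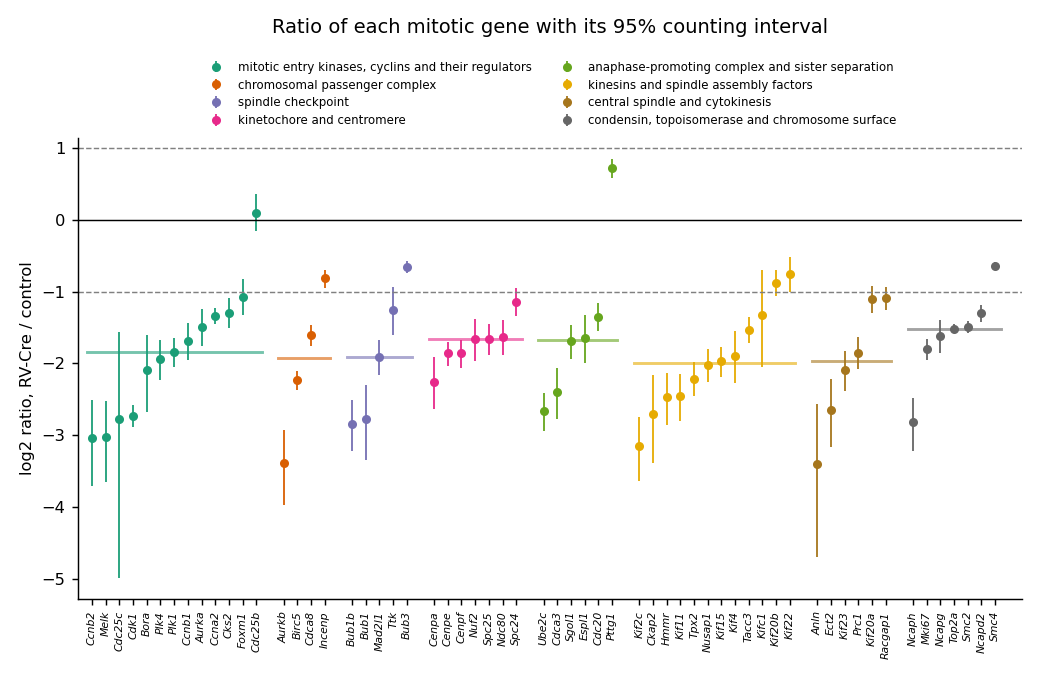
Log2 ratio of RV-Cre over control (y axis) of each of the 60 genes with its 95% counting interval as a bar, grouped by role in colour and ordered within the group, with the median of each group as a horizontal line. Group medians lie between -2.0 and -1.52, and the intervals of single genes in a group are often apart, as for *Aurkb* and *Incenp*.

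Part of the counts may include reads of other genes. Of the 60 genes, 17 share exon bases with another gene in GENCODE M21, 3 of these with a gene on the same strand (*Top2a*, *Foxm1* and *Ncapd2*), and 5 have a transcript end (last 500 bases) at least 90% identical over 200 bases or more to a transcript of another gene, namely *Cdc20*, *Cenpf*, *Cks2*, *Kifc1* and *Ndc80*. Of the 39 genes with neither, 34 were at least 2-fold lower, with the median log2 ratio at -1.97. Genes with exon overlaps on the opposite strand include *Ncapg* (944 bases), *Prc1* (911), *Kif4* (832) and *Ccna2* (510).

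Other genes of division were followed in 8 lists of known role that hold none of the 60 genes, 152 genes in all. Of the 151 past the minimum, 59 were at least 2-fold lower and 1 was at least 2-fold higher, with a median of -0.66. The lists were unlike each other. Of 31 other centromere and kinetochore genes 21 were at least 2-fold lower (median -1.54), and of 22 other spindle, midzone and cytokinesis genes 17 (median -1.85). *Ska3*, a kinetochore protein that binds microtubules, had 239 and 23 reads, a log2 ratio of -3.15. *Zwilch*, a subunit of the checkpoint complex RZZ, had 450 and 70 reads and one of -2.49, while *Hjurp*, the chaperone of CENP-A, had 1240 and 1072 reads and a log2 ratio of -0.04. *Cenpt*, a DNA-bound kinetochore protein, had 225 and 271 reads, a log2 ratio of 0.44. In the spindle list *Fam64a* had 79 and 6 reads (log2 ratio -3.35) and *Gtse1* 419 and 45 (-3.02), while *Ckap5*, a microtubule polymerase, had 496 and 257 (-0.77) and *Ccdc69* 128 and 77 (-0.55).

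Lists of machinery that cells also use outside mitosis lay closer to 0, and their counts stand against the 12.3% of all rows that were at least 2-fold lower, a share that the anaphase-promoting complex, cohesin, gamma-tubulin and entry switch lists were near. Of 17 anaphase-promoting complex genes, 3 were at least 2-fold lower, namely *Fbxo5*, *Cdc26* and, named after its value was seen, *Cdc23*, and the median was -0.33. *Cdc23* had 831 and 344 reads and overlaps *Kif20a* of the 60 genes, which had 833 and 342. These may be the same reads, so *Cdc23* may not be a separate observation. *Fbxo5*, which encodes the inhibitor EMI1, had 1110 and 270 reads, a log2 ratio of -1.86, and *Cdc26*, a small subunit, 510 and 155 (-1.54). The scaffold subunit gene *Anapc2* had 393 and 625 reads (0.84), *Anapc7* 414 and 452 (0.30) and *Fzr1*, the activator used in G1, 876 and 754 (-0.04). Of 14 cohesin genes, the 2 at least 2-fold lower were *Esco2*, the acetyltransferase of S phase, with 411 and 55 reads (-2.71), and *Cdca5*, which encodes sororin, with 414 and 111 (-1.72). The median of this list was -0.02, and its highest values were those of *Mau2* (0.73) and *Hdac8* (0.51). Of the 3 subunits of condensin II, *Ncapg2* had 384 and 129 reads (-1.39), *Ncaph2* 2005 and 1246 (-0.51) and *Ncapd3* 946 and 669 (-0.33). Of 22 gamma-tubulin, augmin and spindle pole genes, 2 were at least 2-fold lower, the augmin subunits *Haus6* (609 and 131 reads, -2.03) and *Haus3* (451 and 162, -1.30). In that list *Tubgcp6* was at least 2-fold higher (297 and 559 reads, 1.08) and *Numa1*, the organizer of spindle poles, had 1052 and 1558 reads (0.74). The median of that list was -0.31. With counts scaled to *Gapdh* the medians of the anaphase-promoting complex, cohesin and gamma-tubulin lists turned to 0.087, 0.39 and 0.10, so their direction depends on the scaling.

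Of 16 further genes of the entry switch, 3 were at least 2-fold lower (12.3% over all rows), *Mastl*, *Cks1b* and, named after its value was seen, *Ccnf*, with a median of -0.52. *Mastl*, the Greatwall kinase that restrains PP2A, had 165 and 36 reads (-1.99), and *Cks1b*, the sister gene of *Cks2*, had 3658 and 823 (-1.98). The phosphatase subunit genes *Ppp2r1a* (3215 and 2919 reads, 0.035) and *Ppp1ca* (4272 and 3680, -0.041) had the highest log2 ratios of that list. Of 26 genes of MuvB, B-Myb, NF-Y, the E2F factors and their regulators, 10 were at least 2-fold lower (12.3% over all rows), with the median at -0.61. Binding sites of E2F factors were not searched in the promoters above. *Mybl2*, which encodes B-Myb, had 731 and 315 reads (-1.04) and the MuvB subunit gene *Lin9* 295 and 117 (-1.15). The atypical repressors *E2f7* (353 and 47 reads, -2.71) and *E2f8* (349 and 60, -2.35) were the lowest of the list. *Cdkn1a*, which encodes the CDK inhibitor p21, had 607 and 684 reads (0.35), *Mybl1* 60 and 103 (0.94) and *E2f5* 1002 and 1358 (0.61), all short of 2-fold. For comparison, 19 of 30 S phase replication genes were lower by 2-fold or more, with a median of -1.33, from *Rrm2* at -2.40 and *Fen1* at -2.36 to *Gins4* at -0.35 and *Rfc2* at -0.11. The difference between the medians of this list and of the 60 genes was not tested.

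**Figure D5:**
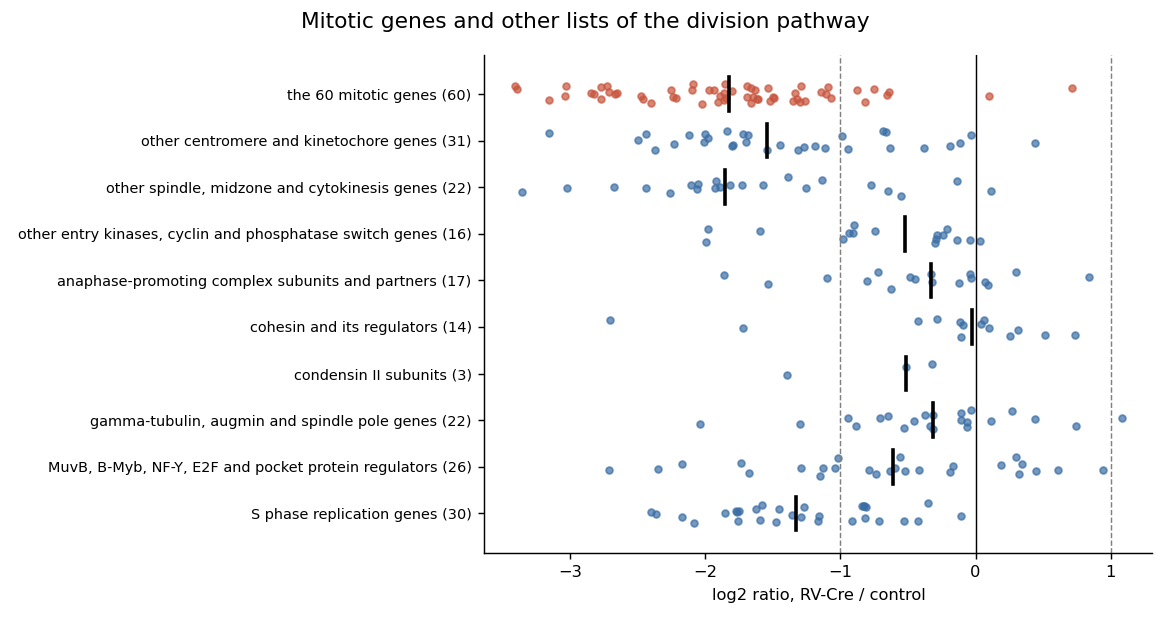
Log2 ratio of RV-Cre over control (x axis) of each gene past the minimum in the 60 mitotic genes (red) and in 9 other lists (blue), with the number of genes in brackets and the median as a black bar. Medians run from -1.85 for other spindle, midzone and cytokinesis genes to -0.02 for cohesin.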

How the data were processed

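RNA-seq libraries of control and RV-Cre-transduced Th17 cells, 1 per condition, were prepared with a QuantSeq 3′ kit. The authors deposited raw counts of reads per gene symbol with no normalization. The submitters' processing notes name bcl2fastq 2.20.0.422, Bowtie2, bedtools and the build mm10. The counting settings, strand use and read filters are not given in the sources used here. Of the 23282 rows, 79 share a symbol with another row and were left out of lists. TMM factors (1.06 and 0.941) came from edgeR 4.0.16 in R 4.3.3. Genes past a log2(normalized count + 1) of 4, that is 15 normalized reads, in at least 1 library were compared at 2-fold, with no test, since there is 1 library per condition. Intervals were computed with scipy 1.17.1 and cover counting error only. They treat each read as independent, so they are too narrow where several reads come from 1 molecule. The procedure was tested on simulated data. Those counts held counting error only and were built with the same scaling factors, so variation between replicates and the scaling were not checked. Transcript ends were compared with blastn 2.17.0, and promoters came from RefSeq (GRCm38.p6). Alternatives were other scalings, pseudocounts, minimums and fold thresholds. The members and lists were chosen with earlier results of these data known. All 60 genes are named. Of each other list, the 2 genes highest and the 2 lowest in log2 ratio, among those whose log2 level reached 6 in either library, are named, with *Cks1b*, *Fbxo5*, *Fzr1*, *Mybl2*, *Lin9* and *Cdkn1a*, and of each marker list the gene of most reads, which for B cells is not reported here.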

Additional observations from a re-analysis of the deposited data

How the results depend on the processing

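No paired analysis was possible because there was a single library on either side. The count of 53 genes at least 2-fold lower ranged from 39 with a fold threshold of 3 to 58 with a threshold of 1.5, and was 43 with *Gapdh* scaling. The share of all rows was not computed for other fold thresholds or scalings, so counts there have no background beside them. With *Gapdh* scaling, and likewise with a threshold of 1.5, 1 gene in place of 0 was called higher, *Pttg1*, at 1.13 and 0.72 on the log2 scale. Values were compared with their counting interval. Scaling to *Gapdh*, itself lower in the RV-Cre library, moved the median of all genes to 0.43 and 50 of the 60 single genes beyond their interval. The median of the 60 genes was then -1.41, and those of the role groups were -1.43 (entry), -1.50 (passenger complex), -1.49 (checkpoint), -1.25 (kinetochore), -1.25 (anaphase-promoting complex), -1.58 (kinesins), -1.56 (cytokinesis) and -1.10 (chromosome structure). The other lists were at -1.12 (kinetochore), -1.45 (spindle, midzone and cytokinesis), -0.11 (entry switch), 0.087 (anaphase-promoting complex), 0.39 (cohesin), -0.094 (condensin II), 0.10 (gamma-tubulin), -0.20 (regulators) and -0.91 (S phase). With quantile normalization chromosome structure was at -1.41 and condensin II at -0.41. Library totals without *Rn45s* and quantile normalization each moved 4 genes beyond their interval, namely *Bub3*, *Smc2*, *Smc4* and *Top2a*. Under either, 51 genes were at least 2-fold lower, with *Foxm1* and *Racgap1* short of 2-fold. Under every scaling and pseudocount run, the same 58 genes kept a log2 ratio below 0. Full library totals, DESeq2 1.42.0 size factors, median centring and both pseudocounts moved no single gene beyond its interval. Within these wide intervals, a pseudocount of 10 took *Cdc25c* to -1.65 and *Anln* to -2.63, and *Aurkb* at -3.12 was then below *Anln*. Without *Rn45s* in the library total, chosen after the data were seen for the share, the 60 genes held 0.552% and 0.223% of reads. The homology region core was within 100 bases of the start for 24.0% of the 50 genes with a promoter and for 7.18% of all. What lies behind these shifts was not tested. Depth limits *Cdc25c*, *Anln* and *Kifc1* most.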
